A study of Homo sapiens with 12 samples.

Results

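Amino acid transporter genes encode the membrane carriers that move amino acids into and out of cells and organelles. The set described here holds the protein-coding genes of the solute carrier families SLC1, SLC3, SLC6, SLC7, SLC36, SLC38 and SLC43, chosen by gene name alone. It counts 59 of the 19951 protein-coding genes and of the 58735 genes in all. Several SLC6 members carry other small molecules (GABA, taurine, creatine, betaine or monoamines) and were kept because the rule is by family name.

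The study asked how the fusion proteins VGLL2-NCOA2 and TEAD1-NCOA2, found in spindle cell rhabdomyosarcoma, change transcription in comparison with YAP5SA, a YAP protein made constitutively active by serine-to-alanine changes. RNA was sequenced from HEK293T, a line derived from human embryonic kidney and expressing the SV40 large T antigen, grown in DMEM with serum and transiently transfected. The 4 groups were the pcDNA3.1 vector control, VGLL2-NCOA2, TEAD1-NCOA2 and YAP5SA, each with 3 libraries described as independently processed, all on the same wild type HEK293T background. Each plasmid was therefore present in one cell line only, at whatever level the transfection gave.

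Amino acid carriers work in a few known ways. SLC3A2 is a heavy chain that brings light chains of the SLC7 family to the cell surface, among them SLC7A5, which exchanges large neutral amino acids such as leucine, and SLC7A11, which takes up cystine in exchange for glutamate. SLC1A5 exchanges glutamine and other neutral amino acids with sodium, SLC38A1 and SLC38A2 concentrate small neutral amino acids and glutamine, and SLC7A1, SLC7A2 and SLC7A3 carry arginine and lysine. Many of these genes are known targets of ATF4, the transcription factor that rises when amino acids are short.

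The levels are FPKM, fragments scaled to gene length and to the size of the library, so they can be compared between genes. Libraries of the control and of both fusions held between 14140996 and 15559838 assigned fragments, recovered as whole numbers from the low values. Of the low YAP5SA values only 11.2% to 13.6% came out whole, so the depth and exact scaling of that table are unknown, and each difference from YAP5SA crosses tables that may have been scaled separately. The plasmids were visible in the data. Mean YAP1 was 4354 FPKM with YAP5SA and 5.33 in control, mean VGLL2 was 257 FPKM with VGLL2-NCOA2 and 1.41 in control, and mean TEAD1 was 52.9 FPKM for TEAD1-NCOA2 and 3.23 in control. TEAD1 was also above control with the other plasmids, at 11.7 FPKM with VGLL2-NCOA2 and 13.3 with YAP5SA. YAP5SA replicate 3 stood apart, since it also held VGLL2 at 54.4 and NCOA2 at 141 FPKM, both of which were at 0 in YAP5SA replicates 1 and 2, and its mean correlation with those libraries was 0.915. Control replicate 3 correlated with the other controls at 0.947. Results that rest on these libraries are given with and without them.

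All 7 HEK293T markers (KRT8, KRT18, VIM, NEFL, NEFM, LHX1, PAX2) exceeded 1 FPKM in control, where their summed level was 291 to 365 FPKM. The sum was 136 in all VGLL2-NCOA2 libraries, 111 to 136 for TEAD1-NCOA2 and 51.5 to 89.7 with YAP5SA. By the calls defined below, 3 of the 7 markers fell with VGLL2-NCOA2, where 5.03% of all tested genes fell. With TEAD1-NCOA2 5 fell (6.51% of all genes), and with YAP5SA 5 fell (10.0%). None was called higher, though mean KRT8 went from 13.3 FPKM in control to 22.1 with VGLL2-NCOA2. Markers of leukocytes, endothelium, kidney tubule, skeletal muscle and neurons summed to at most 4.81 FPKM in any library, and the fibroblast list to at most 10.5 FPKM in control. In bulk RNA, fewer cells expressing a gene and less RNA per cell cannot be told apart. Differences from control also followed gene properties. Across 12016 protein-coding genes the difference of VGLL2-NCOA2 correlated with GC content at a Spearman rho of -0.48 and with length at 0.48, and that of YAP5SA at -0.34 and 0.44; across the 30 tested carriers rho was -0.64 and 0.56, and -0.38 and 0.41. These are correlations across genes that share libraries, and their part in the results was not tested.

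In control cells a handful of carriers held most of the transporter signal. The 59 genes summed to 607 ± 58.3 FPKM (SD, n = 3), of which SLC1A5, SLC7A5 and SLC3A2 gave 59.4% ± 1.90. SLC1A5 came first at 157 ± 21.6 FPKM, followed by SLC7A5 at 120.0 ± 14.95 and SLC3A2 at 83.0 ± 5.19. The arginine carrier SLC7A1 (33.5 ± 3.83), SLC38A2 (31.8 ± 6.69) and the creatine carrier SLC6A8 (31.3 ± 4.12) lay within each other's spread. SLC43A1, which lets branched-chain amino acids through without coupling, stood at 25.3 ± 0.626 and SLC38A1 at 22.6 ± 6.44, again within the spread. SLC38A10, at 15.5 ± 1.08, and SLC7A3, at 11.4 ± 1.37, completed the first 10.

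Of the 59 genes, 30 had 3 or more libraries at 1 FPKM or above and were tested, among 15954 genes in all. SLC6A4, the serotonin carrier, passed only through YAP5SA (1.74, 1.24 and 2.13 FPKM), and SLC7A3 only through the 3 other groups, while 28 had a library at 1 FPKM or more in all 4 groups. The 29 untested members had no value above 1.22 FPKM, and 4 of them (SLC36A2, SLC38A11, SLC6A7 and SLC7A13) were at 0 in every library. The second heavy chain, SLC3A1, reached 0.125 FPKM in a single control library. The glutamate carriers SLC1A2, SLC1A6 and SLC1A7 and the dopamine and noradrenaline carriers SLC6A3 and SLC6A2 stayed below 0.1 FPKM throughout. The glutamate carriers SLC1A1 and SLC1A3 were expressed and are among the tested genes.

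**Figure D1:**
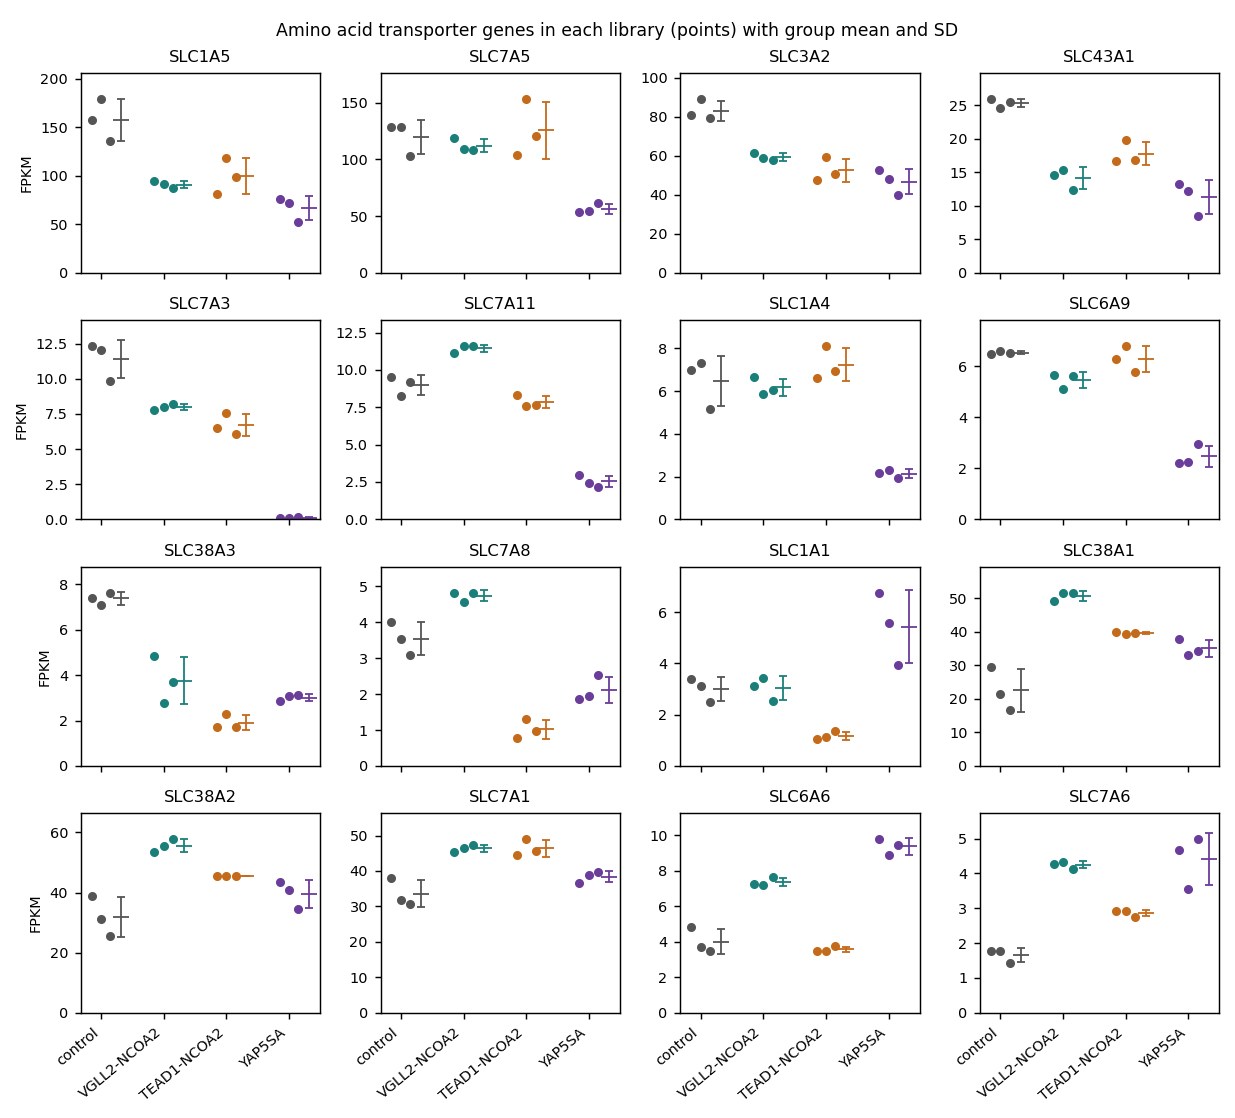
Level in FPKM (vertical axes, each from 0) of 16 transporter genes in the 4 groups, with a point for each library and a bar for the group mean and SD (n = 3). SLC7A3 is near 0 in the 3 YAP5SA libraries, SLC7A11, SLC1A4 and SLC6A9 are lower there than in every other library, and SLC7A8 and SLC1A1 are lowest with TEAD1-NCOA2.

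Each group was compared with control by limma on log2(FPKM + 1) over all 15954 tested genes, with Benjamini-Hochberg adjustment. A gene was called, and is said below to have risen or fallen, when its adjusted p was below 0.05 and its log2 difference exceeded 1 in size. YAP5SA changed the most carriers. With YAP5SA 2 of the 30 tested carriers rose, where 10.4% of all tested genes rose, and 8 fell, where 10.0% of all tested genes fell. With VGLL2-NCOA2 1 carrier rose (6.30% of all genes rose) and none fell (5.03% fell). With TEAD1-NCOA2 none rose (2.89% of all genes) and 2 fell (6.51%). The shares with the fusions were near or below those of all genes, and the share that fell with YAP5SA was above it, with no test of that difference. The median log2 difference of the 30 carriers was 0.16 with VGLL2-NCOA2, 0.01 for TEAD1-NCOA2 and 0.22 with YAP5SA, against 0.01, -0.09 and 0.03 over all tested genes. These 3 comparisons share the control libraries. Groups that did not overlap control were common. Of all tested genes 32.5% lay wholly above and 30.7% wholly below control with VGLL2-NCOA2. The shares were 24.9% and 34.8% with TEAD1-NCOA2, and 33.5% and 30.5% with YAP5SA. Of the 30 carriers 13 lay above and 8 below with VGLL2-NCOA2, 9 and 10 with TEAD1-NCOA2, and 14 and 11 with YAP5SA. A lack of overlap given below for a gene only describes its values.

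The call depended on the scale for part of the YAP5SA list. When each library was rescaled to TPM, the median of all genes rose by 0.57 with VGLL2-NCOA2, 0.35 for TEAD1-NCOA2 and 0.77 with YAP5SA on the log2 scale, and the carriers then split into 16 higher and 1 lower with YAP5SA, 9 higher and 0 lower with VGLL2-NCOA2, and 6 higher and 2 lower with TEAD1-NCOA2. Over all genes the split on that scale was 38.9% higher and 2.71% lower with YAP5SA, 27.7% and 1.28% for VGLL2-NCOA2, and 16.1% and 3.57% for TEAD1-NCOA2. A correction for length and GC content left 0 higher and 3 lower with YAP5SA, which were SLC7A3, SLC7A11 and SLC1A4. Of all genes 10.9% were higher and 5.44% lower under that correction. None of the called differences changed sign under any of these settings. Some YAP5SA calls were lost on the TPM scale, where the median of all genes had itself moved. Relative to that median, SLC7A5 stood at -1.04, SLC43A1 at -1.14, SLC1A5 at -1.21 and SLC38A3 at -1.22. SLC6A9 stood at -1.33, SLC1A4 at -1.49 and SLC7A11 at -1.74. These relative values were not tested.

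**Figure D2:**
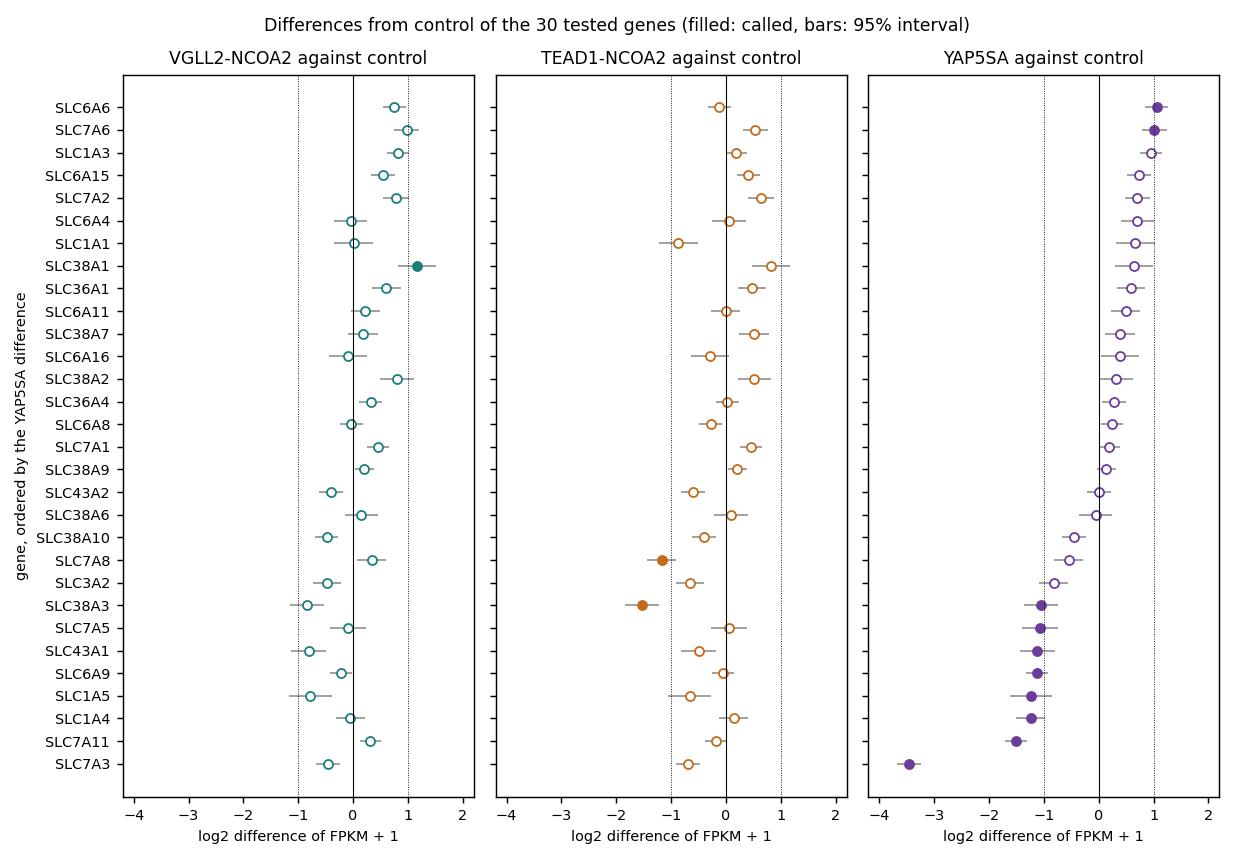
Log2 difference of FPKM + 1 from control (horizontal axis) for each of the 30 tested transporter genes (rows), in 3 panels for VGLL2-NCOA2, TEAD1-NCOA2 and YAP5SA, with 95% intervals as bars, called genes filled and dotted lines at the threshold of 1. SLC7A3 lies at -3.47 with YAP5SA and at -0.46 and -0.69 with the fusions, and 8 genes are filled on the lower side of the YAP5SA panel.

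The cationic carriers held the largest change of the set. SLC7A3 (ENSG00000165349, GRCh38 chrX:70925582-70931125, minus strand), a carrier of arginine and lysine, measured 12.3, 12.1 and 9.84 FPKM in control, 7.80, 7.96 and 8.20 for VGLL2-NCOA2, 6.52, 7.58 and 6.04 for TEAD1-NCOA2, and 0.0877, 0.0899 and 0.175 with YAP5SA. All YAP5SA libraries lay far below all others, and the mean level was 97.0-fold lower than in control. The YAP5SA values are near 0 and the depth of those libraries is unknown, so the size of that fold is uncertain. In whole fragments the gene held 299 to 376 per control library, so the control level is not limited by depth. On the log2(FPKM + 1) scale it fell by 3.47 (SE 0.10, adjusted p = 1.26e-08) with YAP5SA, and its values with VGLL2-NCOA2 and TEAD1-NCOA2 were -0.46 (SE 0.10) and -0.69 (SE 0.10), below the threshold. The difference from each fusion was itself called, at 3.01 for VGLL2-NCOA2 against YAP5SA (adjusted p = 5.19e-08) and 2.78 for TEAD1-NCOA2 against YAP5SA (adjusted p = 9.33e-08), both over the shared YAP5SA libraries. All 15 alternatives kept the call against control, over a range of -5.74 to -3.01.

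The related carriers did not follow. SLC7A1, the main arginine carrier of most cells, measured 37.9, 31.9 and 30.8 FPKM in control, 45.4, 46.4 and 47.3 for VGLL2-NCOA2, 44.4, 49.0 and 45.7 for TEAD1-NCOA2, and 36.7, 38.8 and 39.7 with YAP5SA. It was not called in any comparison on the FPKM scale, with a log2 difference for YAP5SA of 0.19 (95% interval -0.00 to 0.39) and of 0.46 for each fusion, and on the TPM scale it was called higher for VGLL2-NCOA2 (1.08) and just past the fold limit for YAP5SA. SLC7A2, also cationic, had group means of 3.68, 6.997, 6.29 and 6.58 FPKM in the order control, VGLL2-NCOA2, TEAD1-NCOA2 and YAP5SA, with no call. Within a library scaling cancels, though a trend with gene length or GC content does not. There SLC7A3 made up 23.5% ± 1.51 of the summed level of SLC7A1, SLC7A2 and SLC7A3 in control, 13.0% ± 0.214 for VGLL2-NCOA2, 11.3% ± 0.876 for TEAD1-NCOA2 and 0.259% ± 0.104 with YAP5SA. The groups did not overlap with control, and the exact permutation p of 0.1 for each is the smallest that 3 against 3 libraries allow (0.12 adjusted over 18 tests of ratios, which were chosen after the values were seen).

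Among the chains of the heteromeric carriers, SLC7A11 and SLC7A5 fell with YAP5SA. SLC7A11 (ENSG00000151012, GRCh38 chr4:138164097-138242349, minus strand), the cystine and glutamate exchanger, measured 9.54, 8.26 and 9.20 FPKM in control, 11.1, 11.6 and 11.6 for VGLL2-NCOA2, 8.31, 7.57 and 7.65 for TEAD1-NCOA2, and 2.96, 2.46 and 2.18 with YAP5SA. The YAP5SA libraries lay below all others, and the mean was 3.55-fold lower than in control. It fell by 1.505 (SE 0.09, adjusted p = 7.76e-07), and was also called in VGLL2-NCOA2 against YAP5SA (1.82, adjusted p = 7.77e-07) and in TEAD1-NCOA2 against YAP5SA (1.33, adjusted p = 5.52e-06). The difference between the fusions was 0.49 (adjusted p = 0.00403), below the threshold of 1. On the TPM scale the difference of YAP5SA from control was -0.97 and just missed the threshold; relative to the median of all genes on that scale it was -1.74.

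SLC7A5 (ENSG00000103257, GRCh38 chr16:87830023-87869488, minus strand) measured 128, 129 and 103 FPKM in control, 119, 109 and 109 for VGLL2-NCOA2, 104, 153 and 121 for TEAD1-NCOA2, and 53.3, 54.5 and 61.5 with YAP5SA. The fusions overlapped control, while all YAP5SA libraries lay below. The gene fell by 1.07 (SE 0.15, adjusted p = 0.000115) with YAP5SA, but the call was lost on the TPM scale (-0.27, adjusted p = 0.130), with quantile normalization (-0.18, adjusted p = 0.445) and with the length and GC correction (-0.66). TEAD1-NCOA2 against YAP5SA gave 1.13 (adjusted p = 0.000251), a call lost on the TPM scale (0.84), with quantile normalization (0.78) and without TEAD1-NCOA2 replicate 2. Its pseudogene SLC7A5P1 was listed at 2.83, 10.7, 5.88 and 9.76 FPKM in control, VGLL2-NCOA2, TEAD1-NCOA2 and YAP5SA. Reads may be shared between the 2 genes, and how far this alters the level of SLC7A5 is not known.

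The heavy chain SLC3A2 measured 80.9, 88.9 and 79.2 FPKM in control, 61.5, 58.6 and 57.6 for VGLL2-NCOA2, 47.7, 59.2 and 50.8 for TEAD1-NCOA2, and 52.4, 47.8 and 39.8 with YAP5SA. All 9 plasmid libraries lay below the lowest control, yet the log2 differences of -0.48, -0.65 and -0.82 were under the threshold (SE 0.12 each). The ratio of SLC7A5 to SLC3A2 within a library was 1.44 ± 0.145 in control, 1.89 ± 0.0297 for VGLL2-NCOA2, 2.38 ± 0.208 for TEAD1-NCOA2 and 1.23 ± 0.276 with YAP5SA. It did not overlap control for either fusion (exact permutation p = 0.1, the smallest possible) and overlapped for YAP5SA (exact permutation p = 0.3).

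The remaining light chains went in different directions, and both described here were chosen after their values were seen, because their means stayed under 5 FPKM. SLC7A8, a light chain for neutral amino acids, measured 4.01, 3.52 and 3.09 FPKM in control, 4.82, 4.56 and 4.82 for VGLL2-NCOA2, 0.779, 1.31 and 0.971 for TEAD1-NCOA2, and 1.85, 1.94 and 2.52 with YAP5SA. The TEAD1-NCOA2 libraries lay lowest and did not overlap any other group. With TEAD1-NCOA2 it fell by 1.17 (SE 0.12, adjusted p = 3.71e-05), and VGLL2-NCOA2 against TEAD1-NCOA2 gave 1.51 (SE 0.12, adjusted p = 4.28e-05), the only carrier called between the fusions, where 1.60% of all genes were called higher and 0.370% lower. SLC7A6, which exchanges cationic for neutral amino acids, measured 1.77, 1.78 and 1.43 FPKM in control, 4.28, 4.34 and 4.13 for VGLL2-NCOA2, 2.92, 2.91 and 2.76 for TEAD1-NCOA2, and 4.67, 3.56 and 4.98 with YAP5SA. All plasmid libraries exceeded control. It rose by 1.01 (adjusted p = 1.43e-05) with YAP5SA and measured 0.98 with VGLL2-NCOA2, so that a small margin separates the called from the uncalled value. The YAP5SA call was lost in 6 of 14 alternatives, among them leaving out control replicate 3 (0.95), YAP5SA replicate 1 or YAP5SA replicate 3 (0.94).

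**Figure D3:**
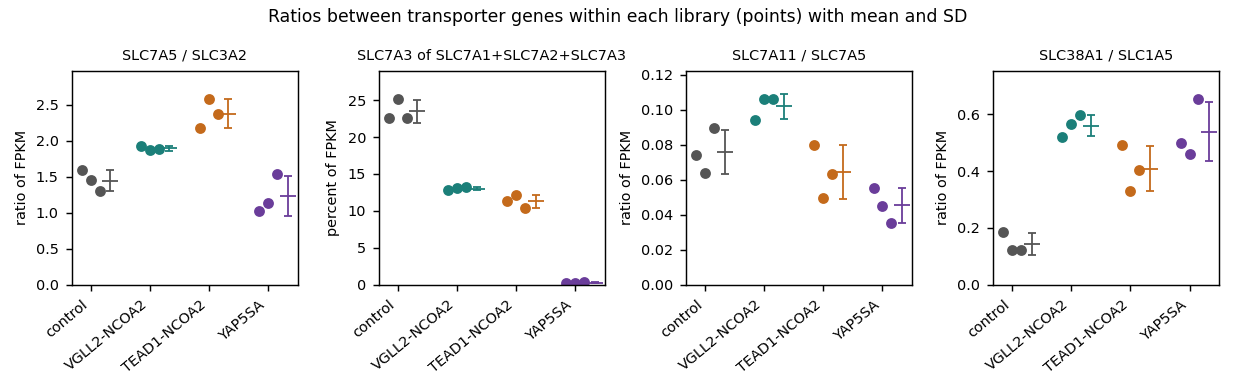
Ratios within each library of SLC7A5 to SLC3A2, of SLC7A11 to SLC7A5 and of SLC38A1 to SLC1A5, and the percent of SLC7A3 in the sum of SLC7A1, SLC7A2 and SLC7A3 (vertical axes, from 0), for the 4 groups with a point for each library and the mean with SD (n = 3). The share of SLC7A3 goes from 23.5% in control to 0.259% with YAP5SA, and the ratio of SLC38A1 to SLC1A5 is above control in all 9 plasmid libraries. These ratios cancel the scaling of a library but not a trend with gene length or GC content.

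The neutral exchangers of the SLC1 family both fell with YAP5SA. SLC1A5 (ENSG00000105281, GRCh38 chr19:46774883-46788594, minus strand) measured 157, 179 and 136 FPKM in control, 94.4, 91.1 and 86.8 for VGLL2-NCOA2, 81.6, 119 and 98.3 for TEAD1-NCOA2, and 76.0, 71.9 and 52.1 with YAP5SA. No plasmid library reached the lowest control. It fell by 1.24 (SE 0.17, adjusted p = 0.000132) with YAP5SA, and was -0.78 (adjusted p = 0.00350) with VGLL2-NCOA2 and -0.66 (adjusted p = 0.00958) with TEAD1-NCOA2, both under the threshold. The YAP5SA value was -0.34 with quantile normalization, -0.44 on the TPM scale and -0.63 with the length and GC correction, none of them called; without YAP5SA replicate 3 it was -1.07 and called.

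SLC1A4 (ENSG00000115902, GRCh38 chr2:64988477-65023865, plus strand), which exchanges alanine, serine and cysteine, measured 6.98, 7.32 and 5.16 FPKM in control, 6.64, 5.85 and 6.03 for VGLL2-NCOA2, 6.62, 8.12 and 6.97 for TEAD1-NCOA2, and 2.19, 2.31 and 1.92 with YAP5SA. Both fusions overlapped control and YAP5SA lay below. It fell by 1.24 (SE 0.12, adjusted p = 9.97e-06) with YAP5SA, and was called in VGLL2-NCOA2 against YAP5SA (1.19, adjusted p = 7.21e-05) and TEAD1-NCOA2 against YAP5SA (1.39, adjusted p = 2.20e-05). The call against control was lost only on the TPM scale, at -0.72 (-1.49 relative to the median of all genes).

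The SLC38 family, the sodium-coupled carriers of glutamine and other neutral amino acids, held single calls in both directions. Of 11 members 7 were tested. With VGLL2-NCOA2 1 rose (6.30% of all genes rose), with TEAD1-NCOA2 1 fell (6.51% fell) and with YAP5SA 1 fell (10.0% fell). A single call among 7 genes is too few to read as a result of the family. SLC38A1 (ENSG00000111371, GRCh38 chr12:46183063-46270017, minus strand) measured 29.4, 21.6 and 16.6 FPKM in control, 49.1, 51.5 and 51.7 for VGLL2-NCOA2, 40.1, 39.3 and 39.7 for TEAD1-NCOA2, and 37.9, 33.1 and 34.2 with YAP5SA. All plasmid libraries lay above control, whose own libraries spread widely. With VGLL2-NCOA2 it rose by 1.17 (SE 0.16, adjusted p = 0.000153), a call that was lost without control replicate 3, the lowest control, and with the length and GC correction (0.70). The values for TEAD1-NCOA2 and YAP5SA were 0.82 and 0.65, under the threshold.

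SLC38A2, which is known to rise when amino acids are withdrawn, measured 38.7, 31.3 and 25.4 FPKM in control, 53.4, 55.5 and 57.8 for VGLL2-NCOA2, 45.4 in each library for TEAD1-NCOA2, and 43.6, 40.8 and 34.5 with YAP5SA. Its log2 differences of 0.81, 0.52 and 0.32 were not called. The ratio of SLC38A1 to SLC1A5 within a library was 0.143 ± 0.0377 in control, 0.560 ± 0.0382 for VGLL2-NCOA2, 0.409 ± 0.0799 for TEAD1-NCOA2 and 0.538 ± 0.103 with YAP5SA, above control in all 9 plasmid libraries (exact permutation p = 0.1 for each, the smallest possible). SLC38A1 is 10015 bases long with 41.3% GC, and SLC1A5 3332 bases with 61.3%. A ratio cancels the scaling of a library but not the trend of differences with length and GC content. The part of that trend in this ratio was not tested. SLC38A10 measured 14.2, 16.1 and 16.1 FPKM in control, 10.8, 11.1 and 10.4 for VGLL2-NCOA2, 10.3, 13.0 and 11.4 for TEAD1-NCOA2, and 11.8, 9.80 and 11.7 with YAP5SA. Its differences of -0.48, -0.40 and -0.45 were close to each other and not called.

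SLC38A3 (ENSG00000188338, GRCh38 chr3:50205246-50221486, plus strand), a system N glutamine carrier, measured 7.40, 7.08 and 7.63 FPKM in control, 4.82, 2.76 and 3.69 for VGLL2-NCOA2, 1.72, 2.29 and 1.71 for TEAD1-NCOA2, and 2.84, 3.08 and 3.12 with YAP5SA. All plasmid libraries lay below control and those with TEAD1-NCOA2 lay lowest. It fell by 1.53 (SE 0.14, adjusted p = 1.90e-05) with TEAD1-NCOA2, kept in 16 of 16 alternatives, and by 1.06 (adjusted p = 8.37e-05) with YAP5SA, lost on the TPM scale (-0.45) and with the length and GC correction (-0.61). With VGLL2-NCOA2 it was -0.84 (adjusted p = 0.000593), and VGLL2-NCOA2 against TEAD1-NCOA2 gave 0.69 (adjusted p = 0.00707), neither past the threshold. The lysosomal members SLC38A9, an arginine sensor, and SLC38A7 had no call, with differences between 0.13 and 0.51.

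SLC43A1 (ENSG00000149150, GRCh38 chr11:57484534-57515786, minus strand) measured 25.9, 24.7 and 25.5 FPKM in control, 14.6, 15.4 and 12.3 for VGLL2-NCOA2, 16.7, 19.8 and 16.9 for TEAD1-NCOA2, and 13.3, 12.2 and 8.47 with YAP5SA. The controls agreed closely and every plasmid library lay below them. It fell by 1.12 (SE 0.14, adjusted p = 7.44e-05) with YAP5SA and was -0.81 and -0.49 with VGLL2-NCOA2 and TEAD1-NCOA2. The YAP5SA call was lost without YAP5SA replicate 3 (-0.94), on the TPM scale (-0.37), with quantile normalization (-0.83) and with the length and GC correction (-0.62). Its relative SLC43A2 had means of 1.79, 1.10, 0.850 and 1.81 FPKM and no call.

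In the SLC6 family, 1 of 2 tested carriers of amino acids fell with YAP5SA, where 10.0% of all genes fell. Of 3 tested carriers of GABA, taurine, betaine or creatine 1 rose, where 10.4% of all genes rose. The 1 tested monoamine carrier and SLC6A16 were not called. These counts are too few to read as a result of the family. SLC6A9 (ENSG00000196517, GRCh38 chr1:43991500-44031467, minus strand), the glycine carrier GlyT1, measured 6.48, 6.59 and 6.52 FPKM in control, 5.64, 5.11 and 5.64 for VGLL2-NCOA2, 6.28, 6.80 and 5.79 for TEAD1-NCOA2, and 2.22, 2.26 and 2.94 with YAP5SA. The YAP5SA libraries lay below all others, which were close together. It fell by 1.12 (SE 0.09, adjusted p = 3.68e-06) with YAP5SA, a call lost on the TPM scale (-0.56) and with the length and GC correction (-0.80), and TEAD1-NCOA2 against YAP5SA gave 1.08 (adjusted p = 2.05e-05). VGLL2-NCOA2 against YAP5SA gave 0.90, just under the threshold.

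SLC6A6 (ENSG00000131389, GRCh38 chr3:14402576-14489349, plus strand), the taurine carrier, measured 4.82, 3.72 and 3.47 FPKM in control, 7.25, 7.19 and 7.64 for VGLL2-NCOA2, 3.49, 3.47 and 3.75 for TEAD1-NCOA2, and 9.78, 8.88 and 9.45 with YAP5SA. VGLL2-NCOA2 and YAP5SA lay above control, and TEAD1-NCOA2 overlapped it. It rose by 1.06 (SE 0.09, adjusted p = 6.69e-06) with YAP5SA, lost without control replicate 3 (0.98) and with the length and GC correction (0.85), and was 0.75 with VGLL2-NCOA2. TEAD1-NCOA2 against YAP5SA gave -1.18 (adjusted p = 1.58e-05), kept in 15 of 15 alternatives. SLC6A8, the creatine carrier, measured 31.7, 35.1 and 26.9 FPKM in control, 31.3, 30.7 and 29.2 for VGLL2-NCOA2, 24.5, 26.5 and 25.6 for TEAD1-NCOA2, and 38.4, 35.7 and 36.6 with YAP5SA. None of its differences was called. SLC6A15, a carrier of branched-chain amino acids and proline, had means of 8.10, 12.3, 11.1 and 14.3 FPKM and no call.

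Of 5 glutamate carriers 2 were tested and none was called against control. SLC1A1 had means of 2.99, 3.03, 1.18 and 5.43 FPKM in control, VGLL2-NCOA2, TEAD1-NCOA2 and YAP5SA. TEAD1-NCOA2 against YAP5SA gave -1.54 (SE 0.16, adjusted p = 6.77e-05), the 2 groups lying on opposite sides of control at -0.87 and 0.67. SLC1A3 had means of 3.12, 6.30, 3.72 and 6.999 FPKM, and its difference of 0.96 with YAP5SA (adjusted p = 8.68e-06) lay just under the threshold. The proton-coupled carriers SLC36A1 and SLC36A4 had 0 calls in 6 values against control, which ranged from 0.03 to 0.61.

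Each fusion was also compared with YAP5SA directly. In VGLL2-NCOA2 against YAP5SA 3 carriers were higher (SLC7A3, SLC7A11 and SLC1A4) and 0 lower, where 2.04% and 2.06% of all genes were called. In TEAD1-NCOA2 against YAP5SA 5 were higher (SLC7A3, SLC1A4, SLC7A11, SLC7A5 and SLC6A9) and 2 lower (SLC1A1 and SLC6A6), where 1.72% and 4.17% of all genes were called. Both share the YAP5SA libraries. Without YAP5SA replicate 3 the first count was 4 higher, SLC7A5 being added, and the second stayed at 5 and 2. Of all genes 1.6% and 2.13%, and 1.24% and 4.41%, were then called. The split of the second count depended on the scale, which gave 3 higher and 7 lower as TPM, and on the pseudocount, which at 0.1 gave 5 of each. The shares of all genes were 1.3% and 14.9% as TPM, and 2.66% and 9.21% with that pseudocount. Against control, leaving out YAP5SA replicate 3 left 1 higher and 7 lower, and leaving out control replicate 3 as well left 0 higher and 7 lower. Of all genes 9.86% and 7.3% were called in the first case, and 9.97% and 8% in the other.

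**Figure D4:**
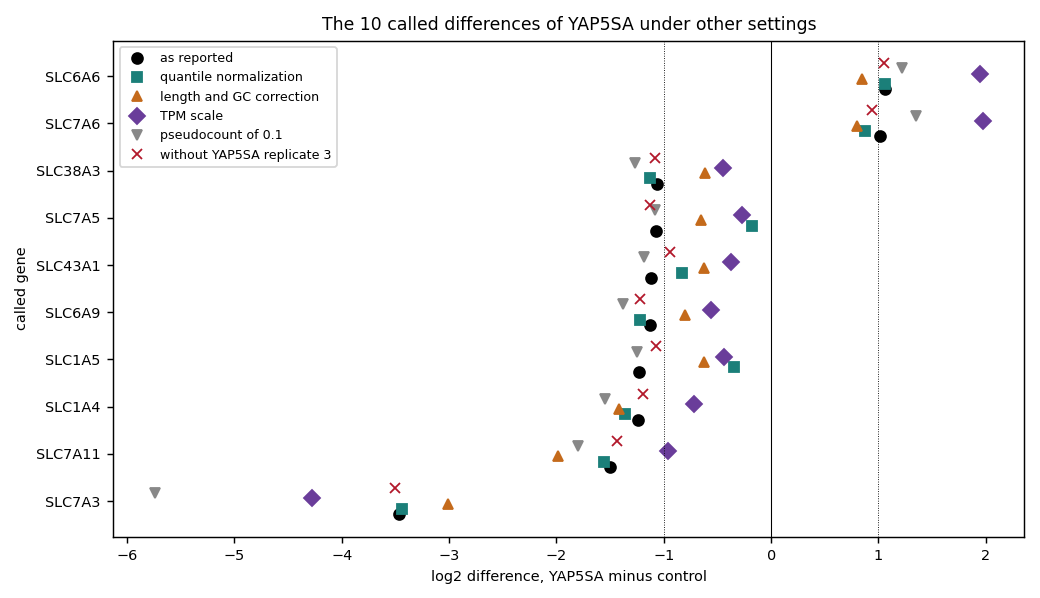
Log2 difference of YAP5SA from control (horizontal axis) of the 10 called transporter genes (rows) as reported and under 5 other settings, a symbol for each, with dotted lines at the threshold of 1. SLC7A3 stays below -3 throughout, SLC7A11 and SLC1A4 miss the threshold only on the TPM scale, and SLC7A5 and SLC1A5 move to -0.18 and -0.34 with quantile normalization.

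The called genes were set beside the known targets of ATF4 among the carriers, a list of 9 written from general knowledge (SLC7A11, SLC3A2, SLC7A5, SLC7A1, SLC7A3, SLC38A2, SLC1A4, SLC1A5 and SLC6A9) with earlier results of these data known. All 9 were tested. With YAP5SA 6 fell and 0 rose (10.0% and 10.4% of all genes), with a median log2 difference of -1.12 against 0.03 for all genes, and with each fusion 0 were called, with medians of -0.09 and -0.05. The 6 remained called without YAP5SA replicate 3 and without both replicates that stood apart. Quantile normalization left 4, the length and GC correction 3, and the TPM scale SLC7A3 alone beside 2 that were then higher (SLC38A2 and SLC7A1). Of all genes 7.8% fell and 8.1% rose with quantile normalization. The shares were 5.44% and 10.9% with the correction, and 2.71% and 38.9% as TPM.

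ATF4 itself measured 432, 515 and 482 FPKM in control, 381, 387 and 396 for VGLL2-NCOA2, 363, 379 and 355 for TEAD1-NCOA2, and 205, 219 and 141 with YAP5SA. It fell by 1.36 (SE 0.17, adjusted p = 5.40e-05) with YAP5SA, and VGLL2-NCOA2 against YAP5SA gave 1.06 (adjusted p = 0.000960). Among 9 tested regulators of these genes, 4 fell with YAP5SA and 0 rose, where 10.0% and 10.4% of all genes did. The others were DDIT3, the stress factor CHOP, at -2.16, CEBPG, a partner of ATF4, at -1.42, and CEBPB, at -2.01, whose YAP5SA values of 21.2, 21.1 and 2.60 FPKM put much of its size on YAP5SA replicate 3. All 4 stayed called without that library, and CEBPB was not called when the compared groups were fitted alone. On the TPM scale CEBPB and DDIT3 stayed called and ATF4 did not, and quantile normalization also removed ATF4. DDIT3 also fell with VGLL2-NCOA2 (-1.15), a call lost on the TPM scale and with quantile normalization, and TFEB, a regulator of lysosomal genes, fell with TEAD1-NCOA2 (-1.18), a call lost with the length and GC correction.

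Other genes of amino acid handling were tested in the same fit, and their counts are read against the shares of all genes called. With YAP5SA 10.4% of all genes rose and 10.0% fell, with TEAD1-NCOA2 2.89% and 6.51%, and with VGLL2-NCOA2 6.30% and 5.03%. Of 18 tested carriers in families outside the rule, 4 fell with YAP5SA (SLC25A39, PQLC2, MFSD12 and SFXN2), 1 rose and 1 fell with TEAD1-NCOA2 (SLC25A15 and SLC17A7), and 0 were called with VGLL2-NCOA2. Of 18 tested genes of amino acid sensing at the lysosome, 1 rose (SESN3) and 2 fell (SESN2 and MLST8) with YAP5SA, 2 rose (SESN1 and MTOR) and 1 fell (NPRL3) for TEAD1-NCOA2, and 2 fell (NPRL3 and MLST8) with VGLL2-NCOA2. SESN2, a leucine sensor and itself a known ATF4 target, fell from a mean of 78.3 to 34.3 FPKM with YAP5SA. These counts depended on the scale: on the TPM scale, 5 of the outside carriers were higher and 0 lower with YAP5SA, and 5 of the sensing genes were higher and 0 lower, so that SESN2 and MLST8 lost their calls and SESN3 kept its own. On that scale 38.9% of all genes were higher and 2.71% lower with YAP5SA. Of 3 tested accessory proteins 0 were called.

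Sequence around the start sites was searched for the ATF4 element core and the TEAD site core, since 6 of the 8 carriers that fell with YAP5SA are on the list of known ATF4 targets and TEAD proteins are the partners of YAP. The windows, from RefSeq on GRCh38.p14, run from 250 bases before to 50 bases after a start site, and 44 of the 59 carriers matched, with 66 windows. TGATGNAA, on either strand, was present in 6 of the 66 windows (9.09%) and in 3.62% of all 35116 windows. GGAATG was present in 7 of the 66 (10.6%) and in 14.0% of all. The 2 motifs do not overlap each other. A match is a description of the letters only. The stretches that hold the ATF4 core in carriers, and the TEAD core beside it in SLC1A5, are shown in the direction of the gene with the core in capitals; SLC1A5 is shown because both cores stand in the window of the innermost of its 3 listed start sites, which lies inside the gene. The windows of its 2 other start sites held no ATF4 core. The starts meant below for SLC1A4, SLC3A2 and SLC38A1 also lie inside the gene spans of the deposited data. That of SLC1A3 with the ATF4 core lies before the span of its gene.
SLC1A5, ATF4 core 97 bases before the start, chr19:46784893-46784922, minus strand: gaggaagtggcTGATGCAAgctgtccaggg
SLC1A5, TEAD core 8 bases before the start, chr19:46784805-46784834, minus strand: gtgggaggccagCATTCCtcaccccgaacc
SLC1A4, ATF4 core 7 bases before the start, chr2:64989381-64989410, plus strand: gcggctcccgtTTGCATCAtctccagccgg
SLC3A2, ATF4 core beginning 37 bases after the start, chr11:62881719-62881748, plus strand: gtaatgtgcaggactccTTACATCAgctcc
SLC7A1, ATF4 core beginning 7 bases after the start, chr13:29595663-29595692, minus strand: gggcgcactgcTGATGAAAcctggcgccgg
SLC38A1, ATF4 core 4 bases before the start, chr12:46266502-46266531, minus strand: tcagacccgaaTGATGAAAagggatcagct
SLC1A3, ATF4 core 220 bases before the start, chr5:36596357-36596386, plus strand: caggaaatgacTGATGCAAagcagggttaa
Of these 6 genes, SLC1A5 and SLC1A4 fell with YAP5SA, and SLC38A1 rose with VGLL2-NCOA2. For SLC7A3, SLC7A11, SLC7A5 and SLC6A9, which also fell with YAP5SA, no ATF4 core was found. Only 44 of the 59 carriers had a window, and whether each of these genes was among them is not given here. The lack of a match therefore says nothing further about them.

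Some levels are shared with neighbours. Exons of SLC6A9 overlap CCDC24 (mean 1.59 FPKM), those of SLC6A6 overlap GRIP2 (1.75), those of SLC6A8 overlap PNCK (1.98) and those of SLC7A6 overlap SLC7A6OS (1.89), each on the opposite strand. Whether counting used strand is not given in the sources used here, so reads of overlapping exons cannot be assigned to either gene with certainty.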

How the data were processed

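HEK293T cells were transfected, RNA was extracted with an RNeasy kit, and paired-end libraries were made with a SMARTER mRNA-Seq kit. The authors deposited FPKM values per gene in 4 tables, 1 for each group, with 58735 genes; all match the gene start and end of GENCODE 29 on GRCh38. The submitters' notes name a mouse build, whereas the IDs are human. The aligner, the counter and the strand setting are not stated in the labels or the methods. Low values of the control and fusion tables were whole multiples of 1 fragment (within 0.05 fragments, 100% of values up to 20 fragments); of those of YAP5SA only 11.2% to 13.6% were.

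The 15954 genes at 1 FPKM or above in 3 or more libraries were fitted on log2(FPKM + 1) with limma 3.58.1 (lmFit, contrasts.fit, eBayes with trend) in R 4.3.3, over all 12 libraries with group means, 2-sided, and p-values were adjusted over all genes tested. Fold changes on this scale understate those of low genes. A call needed an adjusted p below 0.05 and a log2 difference over 1 in size. The study also set its limit at a log2 fold change of 1, with a p-value below 0.05 that it does not describe as adjusted. Here the limit applies to log2(FPKM + 1), which is stricter for low genes, so calls are not the study's own. The p-values rest on 1 spread per gene, taken within groups and pooled over the 4 groups, and adjusted by limma toward that of other genes. They do not reflect the spread of the 2 compared groups alone. Fitted on those groups alone, limma gave larger adjusted p-values with YAP5SA, 9.42e-05 for SLC7A3 and 0.000615 for SLC7A11, and both stayed called. The steps were tested on simulated data. Members, lists, motifs and ratios were chosen with earlier results of these data known. Every library's value is printed for members called against control with a group mean of at least 5 FPKM and for the 10 highest in control. Alternatives were another pseudocount (0.1), filter (none, or 5 FPKM), TPM, quantile normalization, a correction for length and GC content (splines with 5 degrees of freedom), the compared groups alone, a replicate block, leaving out libraries, and limma-voom on recovered fragments. Ratios were compared by exact permutation tests, 2-sided.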

Additional observations from a re-analysis of the deposited data

How the results depend on the processing

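The number of carriers called with VGLL2-NCOA2 against control was 1, and was 2 with a pseudocount of 0.1, 9 on the TPM scale, 2 with quantile normalization, 0 with the length and GC correction, 0 without control replicate 3 and YAP5SA replicate 3, 4 with voom on recovered fragments, and 0 to 2 when 1 library was left out. The shares of all tested genes called moved as well. They were 6.30% higher and 5.03% lower, and 12.4% and 7.25% with the pseudocount of 0.1. On the TPM scale they were 27.7% and 1.28%, and with quantile normalization 4.48% and 3.99%. The length and GC correction gave 4.47% and 2.79%, and voom 12% and 8.78%. Without control replicate 3 and YAP5SA replicate 3 they were 6.32% and 6.12%. With TEAD1-NCOA2 against control the number of carriers was 2, and was 4 with the pseudocount of 0.1, 1 with the minimum of 5 FPKM, where SLC7A8 was no longer tested, and 8 on the TPM scale. Of all genes 2.89% were called higher and 6.51% lower. Under those settings in turn the shares were 7.36% and 10.2%, 3.21% and 7.66%, and 16.1% and 3.57%. With YAP5SA against control the number of carriers was 10, and was 17 on the TPM scale, 3 with the length and GC correction and 8 to 11 when 1 library was left out. Of all genes 10.4% were called higher and 10.0% lower. The shares were 38.9% and 2.71% on the TPM scale and 10.9% and 5.44% with the correction. With 1 library left out they were 9.83% to 11.2% and 7.3% to 11.9%. VGLL2-NCOA2 against TEAD1-NCOA2 called 1, and 3 with the pseudocount of 0.1, 0 with the minimum of 5 FPKM, 3 on the TPM scale and 2 with voom. Of all genes 1.60% were called higher and 0.370% lower. In the same order the shares were 4.42% and 0.57%, 1.51% and 0.503%, 4.57% and 0.432%, and 3.86% and 1.05%. VGLL2-NCOA2 against YAP5SA called 3, and 6 with the pseudocount of 0.1. The shares of all genes were 2.04% higher and 2.06% lower, and 3.69% and 3.79% with that pseudocount. TEAD1-NCOA2 against YAP5SA called 7 (5 higher, 2 lower), and the total stayed within 1.5 times that under every alternative run, while the split moved to 3 higher and 7 lower on the TPM scale and 5 and 5 with the pseudocount of 0.1. The shares of all genes were 1.72% and 4.17%, 1.3% and 14.9% on the TPM scale, and 2.66% and 9.21% with that pseudocount. Apart from the settings that change what is tested or how levels are scaled, the cause of these shifts was not tested. No called difference changed sign; of 1656 values of 18 named carriers under alternatives, 66 changed sign, all of them of uncalled differences.

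The replicate block changed no count, which stayed at 1, 2, 10, 1, 3 and 7 in the order above. Whether same-numbered libraries are pairs was not settled by the values. The correlation of same-numbered deviations ran from -0.05 to 0.27. For control and VGLL2-NCOA2 6 of 6 libraries correlated best with their own number, and for control and each other group 4 of 6. Among the plasmids it was 0, 0 and 2 of 6. Whole fragments could not be recovered for YAP5SA, so voom could not be run on its comparisons, and its depth limits for low carriers are unknown.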
